A study of Mus musculus with 18 samples.

Results

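The comparison set 4 libraries of G9a knockout T cells that carry both CD4 and CD8 on their surface against 2 libraries of G9a knockout T cells that carry CD8 alone, 6 of the 18 samples of the series. All 6 RNA samples are labelled knockout for G9a, also called Ehmt2, so the genotype is shared and the phenotype, CD4+CD8+ (KO DP) against CD4-CD8+ (KO SP), is what differs. The cells came from the spleen and lymph nodes of C57BL/6 mice after 4 weeks of proliferation in lymphopenic hosts. Libraries carry a title number, which is 34, 35, 738 and 739 for KO DP and 738 and 739 for KO SP. A further 4 RNA libraries, of CD4-CD8+ wild-type cells (WT SP; titles 36, 37, 740 and 741), entered the fit to estimate the spread between samples, and 4 H3K9me3 libraries of cultured CD8 T cells of both genotypes served as a separate readout. The labels do not give the Cre driver, the host, the ages, or whether samples of a group are separate animals, so a p-value here reflects sample-to-sample spread that may be technical. The design text names a lymphopenic environment without saying which cells the host still had.

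G9a is a histone methyltransferase that places methyl groups on lysine 9 of histone H3, a mark of silent chromatin. In the thymus, T cells choose between a helper fate, marked by the coreceptor CD4 and held by the transcription factor ThPOK (gene Zbtb7b), and a cytotoxic fate, marked by CD8 and held by Runx3, which silences Cd4. Once made, the choice is stable in most mature T cells, so mature CD8 T cells do not normally carry CD4. Helper T cells can further become Th1, Th2, Th17, follicular or regulatory cells, each with its own factors, receptors and cytokines. The question put to the data was which genes set the knockout cells that gained CD4 apart from knockout cells that did not.

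Values are FPKM (fragments per kilobase of gene, relative to the library's total) as the authors computed them, divided here by a size factor per library, and they are called scaled FPKM. Values for KO DP are listed in the order of titles 34, 35, 738 and 739 and for KO SP in the order 738 and 739. Differences are on the log2(scaled FPKM + 1) scale, KO DP minus KO SP, with the standard error (SE) and the Benjamini-Hochberg adjusted p of limma over 11162 genes. A gene counts as called when its adjusted p is under 0.05, and the added 1 shrinks the difference of genes at low levels. Bulk RNA cannot tell fewer cells that express a gene from less RNA of it per cell.

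The KO DP 738 and 739 libraries stood apart from the rest. Their deposited FPKM summed to 292900 and 183600, against 441900 to 504000 in the other 8 RNA libraries, and their size factors were 0.747 and 0.47 against 1.07 to 1.23. In the same libraries 1118 olfactory receptor genes, a family of sensory neurons, had raised values. Their mean FPKM as deposited, before scaling, was 0.149 and 0.227, against at most 0.021 elsewhere. KO SP has no library of titles 34 or 35, so values are given for both ranges of KO DP below. FPKM holds no read counts, so depth in reads is unknown. Ehmt2 itself stood at 17.8, 20.1, 17.1 and 15.5 in KO DP, at 10.3 and 11.7 in KO SP, and between 16.9 and 38.0 in WT SP. Its transcript was therefore present in all knockout libraries, and without the position of the deleted part in the labels a gene total does not check the knockout. KO DP and KO SP did not differ beyond the threshold in Ehmt2 (0.63, SE 0.27, adjusted p = 0.186 by limma).

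Between KO DP and KO SP, 660 of 11162 genes were called, 5.91% of those tested. Of these, 272 were higher in KO DP (2.44%) and 388 were lower (3.48%). The counts given for gene lists below are to be read beside these shares. Every called gene had 4 KO DP values on 1 side of both KO SP values, but so did 4492 genes in all, 40.2% of those tested (17.8% with KO DP above and 22.4% with KO DP below). Among the called genes, the rises were larger and came from lower levels. Their median was 1.45 and 54 were at least 2 on the log2 scale, with a median KO SP level of 1.00 scaled FPKM, whereas the median fall was -1.08, 44 were lower by at least 2, and the median KO SP level of those genes was 30.8. The median over all tested genes was 0.00240. The contrast between rises and falls in level and size is limited by the filter, which is a mean over all RNA libraries. A gene near 0 in KO SP can pass it on its KO DP values alone. With the filter at a mean of at least 2 FPKM, 147 genes were called higher and 340 lower, against 272 and 388. How much of the contrast follows from the filter was not tested. With KO DP reduced to titles 34 and 35, 413 of 11042 genes were called (3.74%), of which 289 were shared with the 660; within titles 738 to 741 alone, 1984 of 10936 genes were called (18.1%), of which 594 were shared. Without KO SP 738 there were 60 calls (0.537%) and without KO SP 739 there were 56 (0.501%). Without KO DP 35 there were 275, and without WT SP 37 there were 1331.

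**Figure D1:**
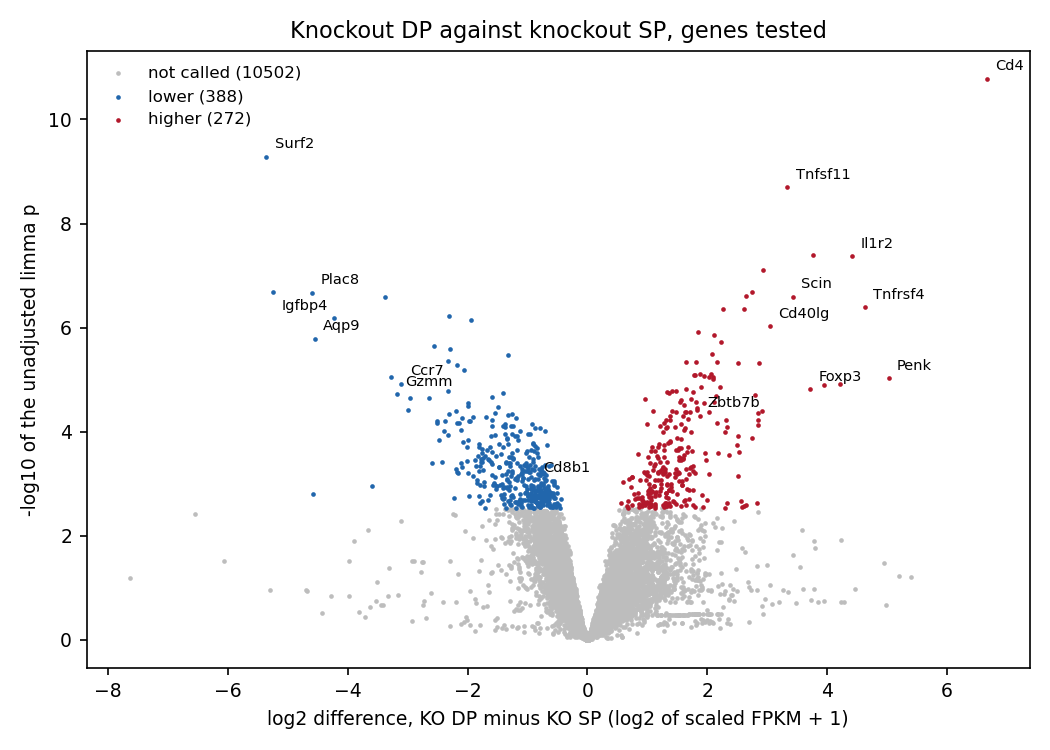
Log2 difference between KO DP and KO SP (x axis, log2 of scaled FPKM + 1) against the -log10 of the unadjusted limma p (y axis), 1 point per gene tested. Red points mark the 272 genes called higher in KO DP, blue points the 388 called lower and grey points those not called; Cd4 lies farthest to the upper right among the called genes, and Igfbp4, Plac8, Surf2 and Aqp9 lie on the left.

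Both groups were sorted as CD8+ and differ in CD4, so Cd4 is a check of the labels and not a finding. It stood at 115, 152, 106 and 105 scaled FPKM in KO DP and at 0.156 and 0.191 in KO SP, with WT SP between 0.131 and 0.462. Cd4 transcript was thus near 0 in every SP library and above 100 in every KO DP library, a difference of 6.66 on the log2 scale (SE 0.19, adjusted p = 1.85e-07). Cd8b1, the beta chain of CD8, was lower in KO DP, at 770, 589, 690.0 and 529 against 1202 and 1156 (-0.89, SE 0.19, adjusted p = 0.0262). The call for Cd8b1 ended without KO DP 35 (adjusted p = 0.0746), KO DP 739 (0.0578), KO SP 738 (0.206) or KO SP 739 (0.21), and also without scaling (0.126), without the filter (0.111) and with columns brought to a common total (0.0524). Cd8a pointed the same way at 223, 162, 206 and 149 against 277 and 264 but did not pass the test (-0.56, SE 0.19, adjusted p = 0.109).

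Zbtb7b, which encodes ThPOK, was higher in KO DP. It stood at 3.70, 4.76, 2.35 and 2.46 in KO DP against 0.169 and 0.137 in KO SP (1.87, SE 0.27, adjusted p = 0.00579), and WT SP lay between 0.188 and 0.761. No KO DP value came near the KO SP values, and the difference was 1.52 within title 738 and 1.61 within title 739. The call ended without KO SP 738 (adjusted p = 0.0717) or KO SP 739 (0.0905), and without scaling (0.0621). Runx3, the factor of the cytotoxic fate, stood at 20, 26.6, 20.9 and 23.2 in KO DP and at 19.2 and 18.9 in KO SP and was not called (0.23, SE 0.29, adjusted p = 0.628). The sign of the Runx3 difference turned without scaling (-0.26, adjusted p = 0.728) and with the title range as a covariate (-0.00215, adjusted p = 0.997).

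Of the helper lineage list, 16 genes known from the choice between the fates, 4 were called higher (Cd4, Cd40lg, Tnfrsf4 and Zbtb7b). Satb1 was called lower and 11 were not called. The groups were sorted on CD4, so the call of Cd4 follows from the sorting and is not a finding. The list's median was 0.40, and -0.05 without scaling. Gata3, a factor of early helper development, was at 34.1, 31.7, 25.7 and 23.2 against 18.9 and 18.7 and missed the threshold (0.57, SE 0.16, adjusted p = 0.0669). The T cell identity list (CD3 chains and proximal signalling, 13 genes) had 1 member called, Cd27, lower, and a median of -0.04 that turned to 0.01 with columns brought to a common total.

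The Zbtb7b promoter is shown because this gene bears on the fate choice. The 120 bases before 1 of its start sites in RefSeq (GRCm38.p6, chr3:89387672-89387791, minus strand), printed on the gene's strand, hold the RUNX letters TGTGGT, in capitals, with their first base 89 bases before the start.
Zbtb7b: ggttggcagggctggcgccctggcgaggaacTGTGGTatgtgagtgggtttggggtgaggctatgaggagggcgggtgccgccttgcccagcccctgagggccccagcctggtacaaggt
TGTGGT or its other strand, ACCACA, is a common match in windows of 300 bases (250 before the start and 50 after), being found in 13.1% of 9879 promoters of tested genes, in 15.5% of 258 promoters of genes called higher and in 17.9% of 363 promoters of genes called lower. Promoters were matched by symbol for 7779 of the 11162 tested genes. Of the 15 genes with the largest rise, 11 had a promoter in the table, and 1 of these held the letters. The match is a description of the sequence and not a measured binding site.

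Called higher in KO DP were 6 transcription factors of helper subsets, while Tbx21, Bcl6 and Gata3, also factors of helper cells, were not called. Foxp3, the defining factor of regulatory T cells, was at 24.1, 16.9, 4.71 and 10.5 in KO DP and was listed at 0 in both KO SP libraries and in all 4 WT SP libraries (adjusted p = 0.00329). Within KO DP, titles 34 and 35 lay above titles 738 and 739, and the call ended without either KO SP library. Ahr, a ligand-activated factor used by Th17 and regulatory cells, stood at 5.45, 7.31, 6.40 and 5.91 against 0.376 and 0.647 (2.27, SE 0.19, adjusted p = 0.000332). Maf, which drives cytokine genes in Th2, Th17 and follicular cells, stood at 3.57, 4.96, 2.43 and 2.89 against 0.0588 and 0.0883 (2.02, SE 0.24, adjusted p = 0.00235). Rora, a nuclear receptor of Th17 cells, was at 71.6, 71.5, 82.5 and 81.5 against 25.2 and 13.6 (1.99, adjusted p = 0.0424), Batf at 115, 186, 154 and 150.4 against 82.5 and 84.2 (0.83, adjusted p = 0.0402), and Ikzf2, which encodes Helios of regulatory cells, at 3.10, 3.07, 1.81 and 2.70 against 0.0931 and 0.0958 (1.73, adjusted p = 0.0195). Each of these 6 factors was separated between the groups in every library, but so was every called gene. Among all tested genes, 17.8% had KO DP above KO SP in this way. Ahr and Maf stayed called whichever library was left out (highest adjusted p 0.0463), while the calls of Foxp3, Rora, Batf and Ikzf2 ended without KO SP 738 (adjusted p between 0.0533 and 0.245) and without KO SP 739 (between 0.0574 and 0.325). Rora and Batf also lost their calls without KO DP 35, 738 or 739 or WT SP 36, Rora without KO DP 34, Batf without WT SP 740, and Ikzf2 without KO DP 35, at adjusted p between 0.0559 and 0.0915. Without scaling Rora, Batf and Ikzf2 were not called (0.0791 to 0.63), and without the filter Rora and Batf were not (0.0735 and 0.0846).

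**Figure D2:**
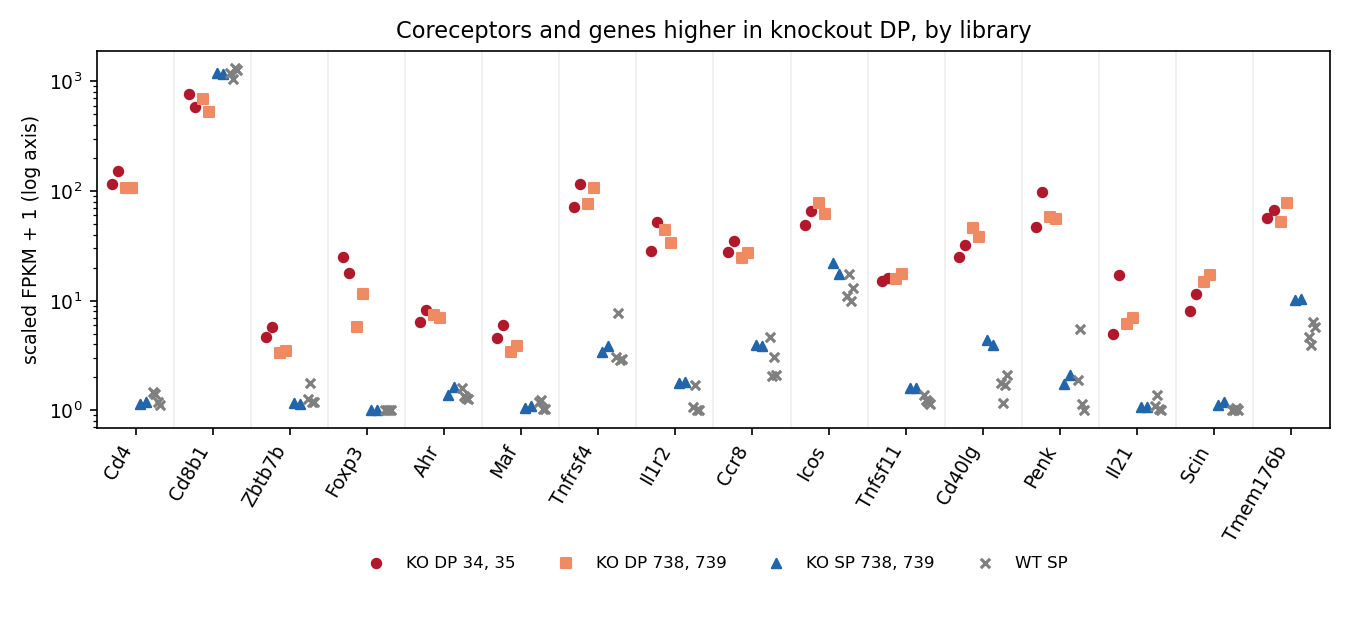
Scaled FPKM + 1 (y axis, log scale) of the coreceptors and of genes discussed as higher in KO DP, by library: red circles KO DP 34 and 35, orange squares KO DP 738 and 739, blue triangles KO SP 738 and 739, grey crosses WT SP. Every KO DP point lies above the KO SP points except for Cd8b1, where all 4 lie below.

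The Th17 list had 14 of its 16 members tested, of which 10 were called higher (among them Ahr, Batf, Ccr6, Il1r1, Il21, Rora, Scin, Tmem176a and Tmem176b), none lower and 4 not called. Its median was 2.01, with 1.93 for titles 34 and 35 and 2.01 for titles 738 and 739. All 14 tested members were above 0, in 13 of them with KO DP above KO SP in every library. Over all tested genes, 17.8% were separated in that direction and 2.44% were called higher. The list was chosen with earlier results of these data known. With KO DP reduced to titles 34 and 35, 7 of 13 tested were called. Without KO SP 738 or KO SP 739 5 of 14 were called, and without scaling 5. Of the list's cytokines Il21 was called higher, with its values given among the cytokines below. Il17a was at 0.109, 1.55, 0.454 and 0.428 in KO DP and listed at 0 in all SP libraries, below the level tested, and Il17f was at 0.596, 3.09, 2.77 and 4.05 against 0.0465 and 0.644 (1.35, SE 0.41, adjusted p = 0.0832). Il23r, the receptor chain that sustains Th17 cells, was at 0.875, 1.47, 0.905 and 2.18 against 0.257 and 0.354 (0.82, adjusted p = 0.077).

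Scin, which encodes the actin-severing protein scinderin, was at 7.12, 10.5, 13.7 and 16.1 in KO DP and at 0.115 and 0.198 in KO SP (3.42, SE 0.27, adjusted p = 0.000238). Tmem176a and Tmem176b, neighbouring genes for membrane proteins found in Th17 cells, rose together. Tmem176a was at 40.9, 50.0, 34.8 and 50.7 against 7.51 and 9.61 (2.23, SE 0.22, adjusted p = 0.000935), and Tmem176b at 55.5, 66.5, 51.8 and 76.7 against 9.20 and 9.38 (2.61, SE 0.22, adjusted p = 0.000332). KO SP levels of the pair lay above those of WT SP, which did not exceed 3.19 and 5.45. Scin, Tmem176a and Tmem176b stayed called whichever library was left out.

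The start regions of this pair are shown because the genes moved together and their starts in RefSeq face away from each other across 1 short stretch of chromosome 6. The 120 bases before the Tmem176a start (GRCm38.p6, chr6:48841363-48841482, plus strand) and the 120 bases before 1 Tmem176b start (chr6:48841375-48841494, minus strand) overlap, and the E-box letters CAGCTG, in capitals, are the same site read from either side.
Tmem176a: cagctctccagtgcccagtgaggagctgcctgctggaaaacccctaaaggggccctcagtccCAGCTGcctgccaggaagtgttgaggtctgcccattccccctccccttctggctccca
Tmem176b: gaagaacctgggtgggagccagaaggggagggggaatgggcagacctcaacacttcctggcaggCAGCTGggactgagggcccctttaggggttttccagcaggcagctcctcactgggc
The first base of the site is 58 bases before the Tmem176a start and 56 bases before the Tmem176b start. CAGCTG reads the same on both strands and was found in 14.6% of the promoters of tested genes, in 16.7% of those of genes called higher and in 15.7% of those of genes called lower. The 3 other motifs were searched on both strands of the same windows. AGATAA of GATA factors was found in 8.53% of promoters of genes called higher, 5.51% called lower and 6.64% tested. The AP-1 motif was found in 7.36%, 5.23% and 4.89%, and GGGANNTCC (NF-kB) in 9.30%, 6.06% and 5.96%. Over all 32851 RefSeq promoters of this length the shares were 11.2% (GATA), 7.81% (AP-1) and 4.30% (NF-kB). There they were 16.8% for RUNX and 16.3% for the E-box. No test was made.

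The regulatory T cell list had 16 of its 21 members tested, of which 8 were called higher (Capg, Ebi3, Folr4, Foxp3, Ikzf2, Il2ra, Nrp1 and Tnfrsf4), none lower and 8 not called, with a median of 1.38. Titles 34 and 35 had a median of 1.79 and titles 738 and 739 of 1.22. Ebi3, the subunit shared by IL-27 and IL-35, was at 8.27, 5.97, 4.79 and 6.21 against 0.0934 and 0.228 (2.64, SE 0.21, adjusted p = 0.000238) and stayed called whichever library was left out. Nrp1, a semaphorin receptor, was at 19.7, 18.2, 19.4 and 15.8 against 2.51 and 2.24 (2.51, SE 0.51, adjusted p = 0.0232). Il2ra, the high-affinity IL-2 receptor chain CD25, was at 5.95, 6.52, 3.10 and 4.51 against 1.63 and 0.915 (1.39, adjusted p = 0.0317), Folr4 at 39.7, 45.9, 20.9 and 14.0 against 8.54 and 5.86 (1.80, adjusted p = 0.0486), and Capg, an actin-capping protein, at 256, 229.7, 319 and 304 against 126 and 101 (1.28, adjusted p = 0.00668). The calls of Nrp1, Il2ra, Folr4 and Capg ended without KO SP 738 (adjusted p between 0.0538 and 0.205) and without KO SP 739 (between 0.125 and 0.324), and that of Capg also without scaling (0.227). Ctla4, the inhibitory receptor of regulatory cells, stood at 29.1, 39.1, 21.1 and 20.3 against 3.53 and 2.24, with no overlap, but missed the threshold (2.84, SE 0.74, adjusted p = 0.0543); WT SP ran from 0.451 to 10.5, and without WT SP 37 Ctla4 was called (adjusted p = 0.000854). The count of this list fell to 2 without KO SP 738 or KO SP 739, to 4 without KO DP 35 and to 3 without scaling. Il10 was at 1.62, 7.63, 0.284 and 0.658 against 0.0410 and 0 and was not called (adjusted p = 0.209).

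**Figure D3:**
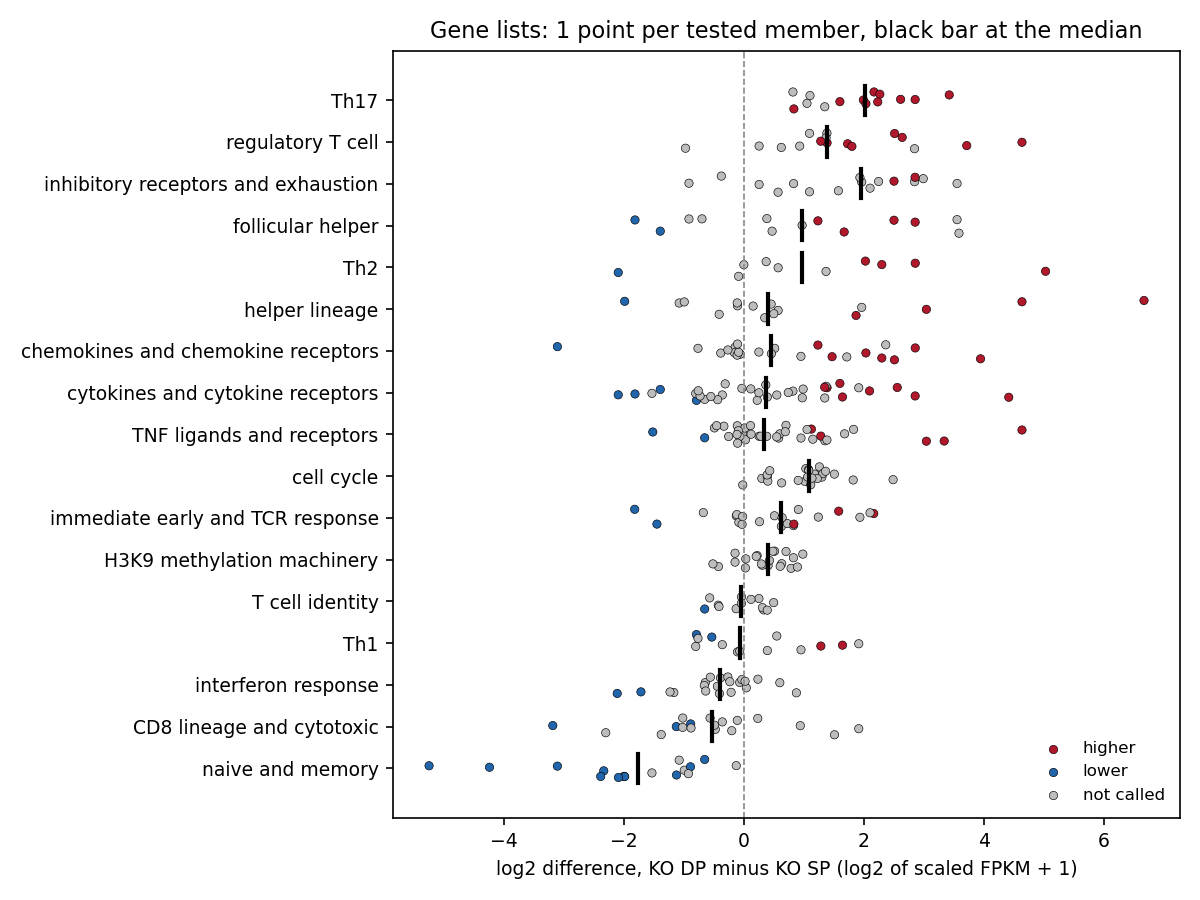
Log2 difference between KO DP and KO SP (x axis, log2 of scaled FPKM + 1) for 17 gene lists, 1 point per tested member, red for called higher, blue for called lower and grey for not called; the black bar is the median of the list and the dashed line the median of all tested genes. The Th17 list has its median at 2.01 and the naive and memory list at -1.76.

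Among surface receptors of activated helper cells, Tnfrsf4, which encodes the costimulatory receptor OX40, stood at 71.2, 114, 75.2 and 105 in KO DP against 2.42 and 2.90 in KO SP (4.63, SE 0.39, adjusted p = 0.000332). The difference was 4.64 for titles 34 and 35 and 4.62 for titles 738 and 739. Il1r2, the decoy receptor for IL-1, stood at 27.4, 50.8, 43.0 and 32.4 against 0.793 and 0.808 (4.41, SE 0.29, adjusted p = 9.58e-05), and Il1r1, the signalling receptor for IL-1, at 1.54, 3.87, 4.42 and 3.67 against 0.216 and 0.583 (1.60, SE 0.30, adjusted p = 0.0165). Cd81, a tetraspanin, was at 29.1, 26.3, 22.4 and 10.2 against 1.41 and 2.38 (2.92, SE 0.41, adjusted p = 0.00535). Il9r, the IL-9 receptor, was at 4.75, 8.84, 5.63 and 4.56 against 0.564 and 0.601 (2.09, adjusted p = 0.00245). Cd200 and its receptor Cd200r1, a pair that restrains myeloid cells, were both higher, at 11.3 to 17.9 against 1.37 and 2.02 and at 19.98 to 30.3 against 2.02 and 3.15 (2.50 and 2.85). Icos, the costimulator of follicular cells, was at 47.7, 65.0, 76.3 and 60.9 against 21.1 and 16.5 (1.67, SE 0.25, adjusted p = 0.00632). Tnfrsf4, Il1r2, Ccr8, Ccr1 and Il9r stayed called whichever library was left out (highest adjusted p 0.0475). The other 11 of the 16 receptors named here and in the chemokine and regulatory lists lost their calls without KO SP 738 (adjusted p between 0.0542 and 0.243) and without KO SP 739 (between 0.0552 and 0.324). Cxcr5, Folr4, Il2ra and Nrp1 were also lost without KO DP 35 (0.0589 to 0.103), and some of these 4 without KO DP 34 (0.0503 to 0.0875), 738 (0.0517 and 0.067) or 739 (0.055), and Folr4 without WT SP 36, 740 or 741 (0.0513 to 0.0673). Without scaling 9 of the 16 were not called (Cd81, Ccr6, Cd200, Icos, Nrp1, Il2ra, Folr4, Il1r1 and Cxcr5, at 0.0505 to 0.329).

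Of 23 tested chemokine and receptor genes, 7 were called higher (Ccl1, Ccr1, Ccr4, Ccr6, Ccr8, Cxcl10 and Cxcr5), 1 lower (Ccr7) and 15 not. Ccr8, a receptor of Th2 and tissue regulatory cells, stood at 26.6, 33.9, 23.5 and 26.5 against 2.99 and 2.86 (2.85, SE 0.31, adjusted p = 0.00162), and Ccl1, its ligand, at 13.3, 32.6, 13.3 and 12.7 against 0.3002 and 0 (3.94, SE 0.49, adjusted p = 0.00302). A receptor and its ligand were thus both higher in the same libraries. Ccr6 of Th17 cells was at 20.7, 30.9, 24.5 and 32.5 against 4.91 and 6.77 (2.03, adjusted p = 0.00535), Ccr4 of Th2 and regulatory cells at 3.63, 9.29, 12.6 and 8.70 against 0.630 and 1.01 (2.30, adjusted p = 0.00811), Ccr1 at 11.4, 7.84, 4.60 and 8.16 against 0.619 and 0.434 (2.51, adjusted p = 0.00162), and Cxcr5, which leads follicular cells to B cell follicles, at 25.0, 38.8, 23.8 and 23.4 against 9.78 and 12.3 (1.23, adjusted p = 0.0296). Cxcr3, a receptor of Th1 and effector CD8 cells, was not called, at 294, 288, 269 and 207 against 289.8 and 274 (-0.11, SE 0.22, adjusted p = 0.779). Ccl3, Ccl4 and Ccl5 split by title range within KO DP and none was called; Ccl5 was at 2344, 2760.0, 547 and 552 against 1773 and 1345. The calls of Ccr4, Ccr6 and Cxcr5 ended without KO SP 738 (adjusted p = 0.114, 0.0853 and 0.243) and without KO SP 739 (0.0905, 0.0552 and 0.166), that of Cxcr5 also without KO DP 35 (0.0589), that of Ccl1 without KO SP 739 (0.0583) and that of Ccr7 likewise (0.0583).

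Among the helper ligands and cytokines the smallest adjusted p was that of Tnfsf11, which encodes RANKL, the ligand that drives osteoclasts and dendritic cell survival. It stood at 14.2, 15.2, 14.9 and 16.5 in KO DP against 0.601 and 0.598 in KO SP (3.34, SE 0.16, adjusted p = 7.48e-06), and KO DP varied little among libraries of both ranges. Cd40lg, the CD40 ligand through which helper cells license B cells and dendritic cells, stood at 24.3, 31.2, 44.9 and 36.9 against 3.41 and 2.99 (3.04, SE 0.28, adjusted p = 0.000547). In the TNF list, 5 of 36 tested members were called higher (these with Tnf, Tnfrsf4 and Tnfsf14), 2 lower (Cd27 and Tnfrsf26) and 29 not called, at a median of 0.33. Penk, the precursor of enkephalin peptides that helper cells can make, stood at 45.8, 97.7, 57.3 and 55.1 against 0.748 and 1.10 (5.03, SE 0.60, adjusted p = 0.00241). Tff1, a secreted trefoil peptide of mucosa, was at 37.0, 51.0, 18.3 and 12.8 against 0.495 and 0.403 (4.22, SE 0.52, adjusted p = 0.00287). The call of Tff1 ended without KO SP 739 (adjusted p = 0.0538).

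Of 35 tested cytokine and receptor genes, 8 were called higher (Csf1, Csf2, Il1r1, Il1r2, Il2, Il21, Il2ra and Il9r) and 4 lower (Il18rap, Il4ra, Il6ra and Il6st), with 23 not called. Il21, the follicular and Th17 cytokine, was at 3.96, 16.2, 5.17 and 5.97 against 0.0788 and 0.0770 (2.85, SE 0.42, adjusted p = 0.0064), and Il2, the T cell growth factor, at 5.34, 5.61, 4.25 and 3.93 against 0.735 and 0.947 (1.64, SE 0.21, adjusted p = 0.00329). Csf1 was at 20.5, 12, 2.84 and 5.33 against 0.442 and 0.655 (2.56, SE 0.62, adjusted p = 0.0431) and Csf2 at 4.06, 3.30, 2.42 and 2.997 against 0.382 and 0.932 (1.35, adjusted p = 0.0111). Ifng, the Th1 and cytotoxic cytokine, was at 54.1, 65.3, 29.5 and 32.8 against 14.9 and 7.59 but was not called (1.91, SE 1.04, adjusted p = 0.278). Il4, Il5 and Il13, the Th2 cytokines, were under the level tested, with Il4 at 0.526, 0.0856, 1.15 and 1.90 in KO DP and listed at 0 in KO SP. Tnfsf11, Cd40lg, Penk and Ebi3 stayed called whichever library was left out (highest adjusted p 0.0468). Il21, Il2, Csf1, Csf2, Tnf, Tnfsf14 and Cxcl10 lost their calls without KO SP 738 (adjusted p between 0.0579 and 0.256), and Tff1, Ccl1 and the same genes but Il2 without KO SP 739 (between 0.0538 and 0.251). Csf1, Tnf or Tnfsf14 also lost their calls without KO DP 34 (0.056 and 0.0603), 35 (0.06 to 0.103) or 739 (0.0506 and 0.0583), and Csf1 without WT SP 36 (0.0605) or 741 (0.0593). Without scaling Il2, Csf1, Csf2, Tnf, Tnfsf14 and Cxcl10 were not called (0.088 to 0.341).

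The Th1, Th2 and follicular lists were mixed. The Th1 list had 2 members higher (Il2 and Tnf), 2 lower (Il18rap and Stat4) and 9 not called, with a median of -0.07 and Tbx21, its defining factor, at 65.6, 64.3, 71.8 and 62.9 against 94.1 and 76.7 (-0.36, SE 0.18, adjusted p = 0.256). Of 10 tested Th2 genes, 4 were higher (Ccr4, Ccr8, Maf and Penk), 1 was lower (Il4ra) and 5 were not called. The follicular list had 4 of 13 higher (Cd200, Cxcr5, Icos and Il21), 2 lower (the IL-6 receptor chains Il6ra and Il6st) and 7 not called, with Bcl6, its defining factor, at 3.06, 4.35, 1.52 and 2.79 against 0.719 and 1.18 (0.97, SE 0.30, adjusted p = 0.0916). Among inhibitory receptors and exhaustion genes 2 of 16 were called, both higher (Cd200 and Cd200r1), although the list's median was 1.95. Pdcd1, which encodes PD-1, stood at 117, 159.6, 101 and 104 against 9.45 and 8.93, with WT SP from 1.28 to 213, and was not called (3.55, SE 1.495, adjusted p = 0.18).

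Genes of resting and recirculating T cells were lower in KO DP. The naive and memory list had all 16 members tested, of which 11 were called lower (among them Bcl2, Ccr7, Cd27, Dapl1, Foxp1, Igfbp4, Ly6c1, Ly6c2, S1pr1 and Satb1), none higher and 5 not called. All 16 differences were below 0, with a median of -1.76, -1.65 for titles 34 and 35 and -1.65 for titles 738 and 739. Ccr7, the chemokine receptor that guides T cells into lymph nodes, stood at 23.2, 16.9, 16.7 and 20.7 against 153 and 195 (-3.10, SE 0.38, adjusted p = 0.00287). WT SP lay between 85.2 and 254, so Ccr7 was lower in every KO DP library than in any SP library of either genotype. Igfbp4, a binding protein for insulin-like growth factors found in naive T cells, stood at 0.706, 0.963, 0.471 and 0.834 against 51.4 and 81.1 (-5.24, SE 0.41, adjusted p = 0.000238). S1pr1, the receptor for exit from lymph nodes, was at 86.1, 89.8, 117 and 97.1 against 185 and 175 (-0.89, SE 0.16, adjusted p = 0.0136).

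Ly6c2, a surface glycoprotein of memory CD8 cells, was at 400, 360.0, 677 and 652 against 2404 and 2669 (-2.33, SE 0.38, adjusted p = 0.00868), and its neighbour Ly6c1, whose near-identical sequence can share reads with it, at 91.2, 86.1, 142 and 125 against 447 and 483 (-2.09, adjusted p = 0.00614). The values of these neighbours are therefore uncertain one from the other. Dapl1 was at 90.3, 58.9, 89.4 and 132 against 439 and 500 (-2.38, adjusted p = 0.0064), Satb1, a chromatin organiser, at 17.1, 15.1, 21.8 and 21.1 against 67.8 and 85.7 (-1.98, adjusted p = 0.0064), and Bcl2, a survival protein, at 41.3, 17.2, 13.9 and 25.0 against 75.7 and 112 (-1.99, adjusted p = 0.0222). Not called were Il7r (-1.53, SE 0.41, adjusted p = 0.0572), Lef1 (-1.08, adjusted p = 0.051), Tcf7 (-0.99, adjusted p = 0.0667), Klf2 (-0.13, adjusted p = 0.712) and Bach2. Igfbp4 and Plac8 stayed called whichever library was left out (highest adjusted p 0.00678). Without KO SP 738 the list had 3 members called and without KO SP 739 it had 2, the lost calls having adjusted p between 0.0594 and 0.179 and between 0.0583 and 0.266. Ccr7 lost its call without KO SP 739 (adjusted p = 0.0583), and Bcl2 and Cd27 also without KO DP 35 (0.06 and 0.0768), Cd27 without any of KO DP 34, 738 and 739 (0.0598 to 0.0674). Without scaling S1pr1, Foxp1 and Cd27 were not called (0.0529 to 0.131).

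Other large falls fell outside the lists. Plac8, a small protein of immune cells, was at 13.6, 6.36, 4.97 and 8.63 against 209 and 216 (-4.59, SE 0.36, adjusted p = 0.000238). Aqp9, a glycerol channel used by memory CD8 cells, was at 0.949, 0.160, 0.411 and 1.19 against 32.8 and 41.8 (-4.55, SE 0.44, adjusted p = 0.000826), and G0s2, an inhibitor of fat breakdown, at 0.412, 0.357, 0.392 and 0.972 against 12.6 and 17.4 (-3.39, SE 0.27, adjusted p = 0.000238). Fcgrt, the neonatal Fc receptor, was at 6.62, 5.93, 4.98 and 6.14 against 39.3 and 40.2 (-2.56, SE 0.26, adjusted p = 0.00107). Cnr2, the cannabinoid receptor of leukocytes, fell from 12.6 and 20.02 to between 0.349 and 1.11 (-3.27), Zfp296 from 9.91 and 12.8 to between 0.703 and 1.32 (-2.65), and Lypd6b from 9.51 and 9.71 to between 0.235 and 0.697 (-2.96). Pde2a, a cyclic nucleotide phosphodiesterase, was split by range within KO DP, at 18.8, 18.8, 5.49 and 5.82 against 56.6 and 83.1 (-2.60, SE 0.49, adjusted p = 0.018). Aqp9, G0s2 and Fcgrt stayed called whichever library was left out (highest adjusted p among these and Surf2 0.0247), whereas Pde2a and Lypd6b lost their calls without either KO SP library (0.0571 to 0.21), and Cnr2 and Zfp296 without KO SP 739 (0.0552 and 0.08).

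**Figure D4:**
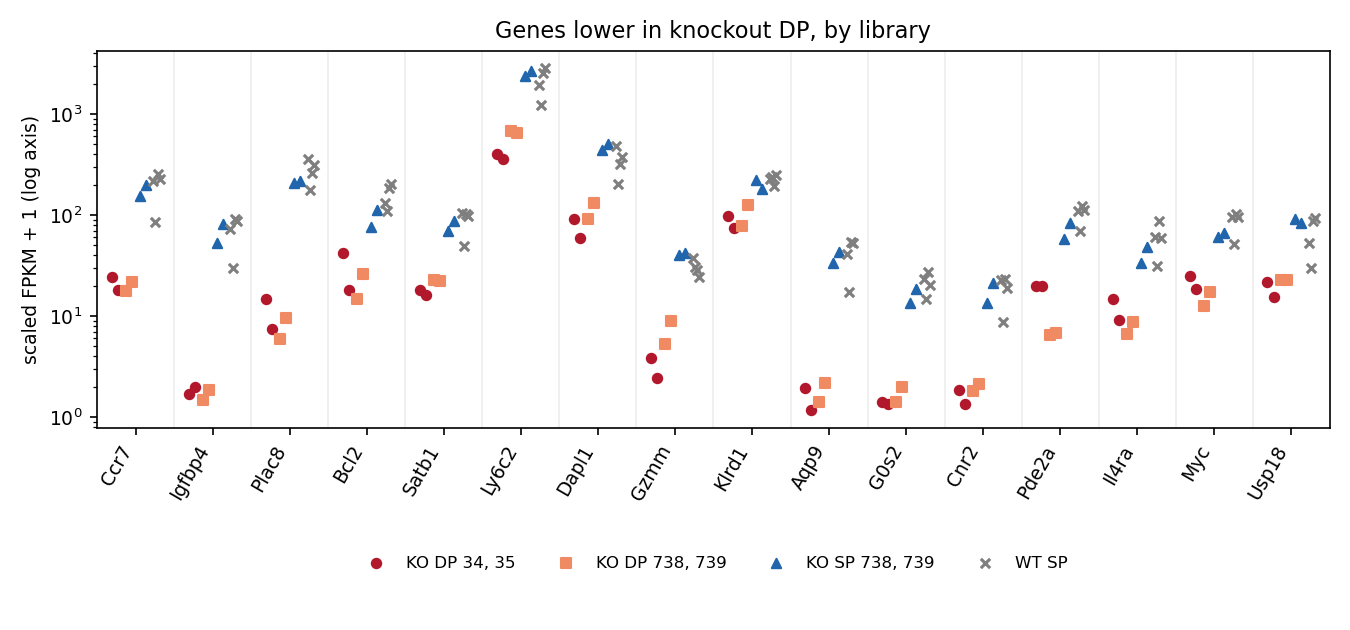
Scaled FPKM + 1 (y axis, log scale) of genes discussed as lower in KO DP, by library, with the same symbols for KO DP 34 and 35, KO DP 738 and 739, KO SP and WT SP. All 4 KO DP points lie below both KO SP points for each gene shown; Ccr7 lies between 16.7 and 23.2 in KO DP and at 153 and 195 in KO SP.

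A few called genes were listed at exactly 0 in every library of 1 group, and 2 of them are genes that T cells generally use, so a 0 may be a failed estimate and no fold is given. Surf2, a housekeeping gene, had 0 in each KO DP library, with 36.0 and 44.4 in KO SP and between 26.6 and 48.6 in WT SP. Rbm12, an RNA-binding protein, was listed at 0 in both KO SP libraries, at 11.2, 16.6, 13.2 and 10.3 in KO DP and between 8.59 and 15.9 in WT SP. St6galnac6, a sialyltransferase, was at 5.15, 5.80, 8.20 and 7.70 in KO DP and listed at 0 in all 6 SP libraries. Snora62, a small nucleolar RNA, was listed at 0 in KO DP and at 8.69 and 14.2 in KO SP, with WT SP from 0 to 7.98. Cd72, a receptor best known from B cells, was at 0, 0, 5.47 and 14.9 against 80.2 and 70.3 (adjusted p = 0.0374), and this call ended without KO DP 34 (0.0644) or 35 (0.0769), either KO SP library (0.229 and 0.235) or WT SP 36 (0.0548). The call of Snora62 ended without any 1 of the KO DP libraries (0.0588 to 0.0713) or KO SP libraries (0.166 and 0.258).

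Of 18 tested genes of the CD8 lineage and its cytotoxic machinery, 3 were called lower (Cd8b1, Gzmm and Klrd1), none higher and 15 not called, with a median of -0.53. Gzmm, a granzyme, was at 2.87, 1.42, 4.23 and 7.85 in KO DP against 39.5 and 41.2 in KO SP (-3.18, SE 0.41, adjusted p = 0.00357). Klrd1, which encodes the NK receptor chain CD94, was at 96.3, 73.4, 77.4 and 126 against 223 and 179 (-1.12, SE 0.22, adjusted p = 0.0195). Perforin, encoded by Prf1, was at 84.7, 56.8, 43.4 and 34.8 against 150.5 and 124 and missed the threshold (-1.38, SE 0.35, adjusted p = 0.0509). Gzmb was at 187, 245, 174 and 152 against 402 and 114 and did not separate (-0.20, SE 0.55, adjusted p = 0.835), nor did Eomes, at 36.9, 36.1, 18.6 and 17.9 against 40.0 and 33.0 (-0.47, SE 0.39, adjusted p = 0.458). The calls of Gzmm and Klrd1 ended without KO SP 738 (adjusted p = 0.0533 and 0.192) and without KO SP 739 (0.0606 and 0.12).

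The 4 cytokine receptor genes called lower were Il4ra, Il6ra, Il6st and Il18rap, and Stat4, a signal carrier of the Th1 list, was called lower too. Il4ra, a chain of the IL-4 receptor, was at 13.9, 8.10, 5.60 and 7.79 against 32.3 and 47.3 (-2.09, SE 0.41, adjusted p = 0.0195), Il6ra at 1.24, 1.39, 1.26 and 1.98 against 4.96 and 11.4 (-1.81, adjusted p = 0.0219), and Il6st at 7.52, 9.29, 5.31 and 6.33 against 14.9 and 26.6 (-1.39, adjusted p = 0.0367). Smaller falls were measured for Il18rap (-0.79, SE 0.18, adjusted p = 0.0341) and Stat4 (-0.53, SE 0.13, adjusted p = 0.0471). The calls of these 5 genes, of Gzmm and Klrd1, and of Tnfrsf26, 8 in all, ended without KO SP 738 (adjusted p between 0.0533 and 0.307) and without KO SP 739 (between 0.0606 and 0.318). Of these, 6 ended without KO DP 35 (0.0515 to 0.0953), 4 without KO DP 34, 2 without KO DP 738 and 3 without KO DP 739 (0.0503 to 0.093), and Stat4 or Il6st also without WT SP 36, 740 or 741 (0.0504 to 0.064). Without scaling Il6st, Il18rap and Stat4 were not called (0.0637 to 0.156).

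Early response genes moved in both directions. Egr2, a factor induced by T cell receptor signals, was at 9.83, 17.1, 8.56 and 7.58 against 1.72 and 1.32 (2.16, SE 0.33, adjusted p = 0.00668), and Egr1 at 20.8, 31.3, 17.0 and 13.0 against 6.03 and 5.71 (1.58, SE 0.33, adjusted p = 0.0267). Myc, a growth regulator, was lower, at 23.9, 17.5, 11.7 and 16.4 against 59.3 and 64.6 (-1.82, SE 0.31, adjusted p = 0.0117), as was Cd69, which retains cells in tissue, at 30.7, 33.6, 28.2 and 44.2 against 92.0 and 95.2 (-1.45, SE 0.34, adjusted p = 0.0379). Of 21 tested genes of this list, 3 were higher (with Batf), 2 lower and 16 not called. Of 21 interferon response genes, 2 were lower, Usp18 (19.6 ± 3.43 SD, n = 4, against 86.9 ± 5.50 SD, n = 2, scaled FPKM) and Oasl1, which was at 2.58, 1.49, 1.08 and 1.24 against 9.18 and 5.81. The calls of Egr1, Egr2, Myc, Cd69, Usp18 and Oasl1 ended without KO SP 738 (adjusted p between 0.0717 and 0.309) and without KO SP 739 (between 0.112 and 0.256); those of Egr1 and Cd69 or Oasl1 also ended without single KO DP libraries (0.0506 to 0.106) and Cd69 or Oasl1 without WT SP 36 or 741 (0.0512 to 0.0627). Without scaling Egr1, Egr2 and Oasl1 were not called (0.0621 to 0.237).

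None of 25 cell cycle genes was called by limma, though 24 were above 0 and 3 had an unadjusted p under 0.05; their median was 1.08, with 0.53 for titles 34 and 35 and 1.57 for titles 738 and 739. Top2a, a replication enzyme, was at 29.9, 52.4, 83.3 and 58.3 in KO DP against 29.6 and 14.4 in KO SP (1.30, SE 0.60, adjusted p = 0.213). None of 21 genes of the H3K9 methylation machinery was called by limma, where 5 had an unadjusted p under 0.05, and their median of 0.40 turned to -0.07 without scaling.

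Markers of other cell types moved with title range more than with phenotype for some lists. The erythroid sum (12 genes) was 579.6 and 1046 scaled FPKM in KO DP 34 and 35 and 10.2 and 21.6 in KO DP 738 and 739, against 60.7 and 17.0 in KO SP; 1 of 8 tested members, Gata1, was called, lower. WT SP had the same split, at 448 and 911 in titles 36 and 37 and at 14.4 and 20.3 in titles 740 and 741. The myeloid sum (18 genes) was 207 and 155 in KO DP 34 and 35, 28.7 and 44.4 in KO DP 738 and 739 and 37.9 and 28.1 in KO SP, with none of 13 tested called by limma and none at an unadjusted p under 0.05. The dendritic sum (13 genes) was 811, 547, 480.3 and 579 in KO DP against 305 and 381 in KO SP, with WT SP from 267 to 557. Of that sum Cd74 alone made up 286 to 480 in KO DP and 104 and 153 in KO SP. None of 10 tested was called by limma, and 7 had an unadjusted p under 0.05. KO DP lay above KO SP without overlap in 5 and below in 2, among the latter Itgax (3.56 to 5.07 against 21.3 and 11.5). Clec9a was under 0.5 scaled FPKM in all 6 knockout libraries. The NK sum (15 genes) was 207 to 334 in KO DP against 1022 and 304 in KO SP, with none of 10 tested called by limma and 1 at an unadjusted p under 0.05. Gzma, also on the CD8 list, made up 600 of the sum in KO SP 738 and 85.9 in KO SP 739. Ncr1 was listed at 0 in both KO SP libraries. The gamma-delta and innate-like list (9 genes) summed to 66.7 to 129 in KO DP against 178 and 244 in KO SP, and among its called members Maf was higher and 5830411N06Rik lower. The B cell sum was 55.0 to 139.9 against 71.6 and 96.6, with none of 10 tested called by limma and none at an unadjusted p under 0.05. The part of other cell types in the differences between KO DP and KO SP was not tested.

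**Figure D5:**
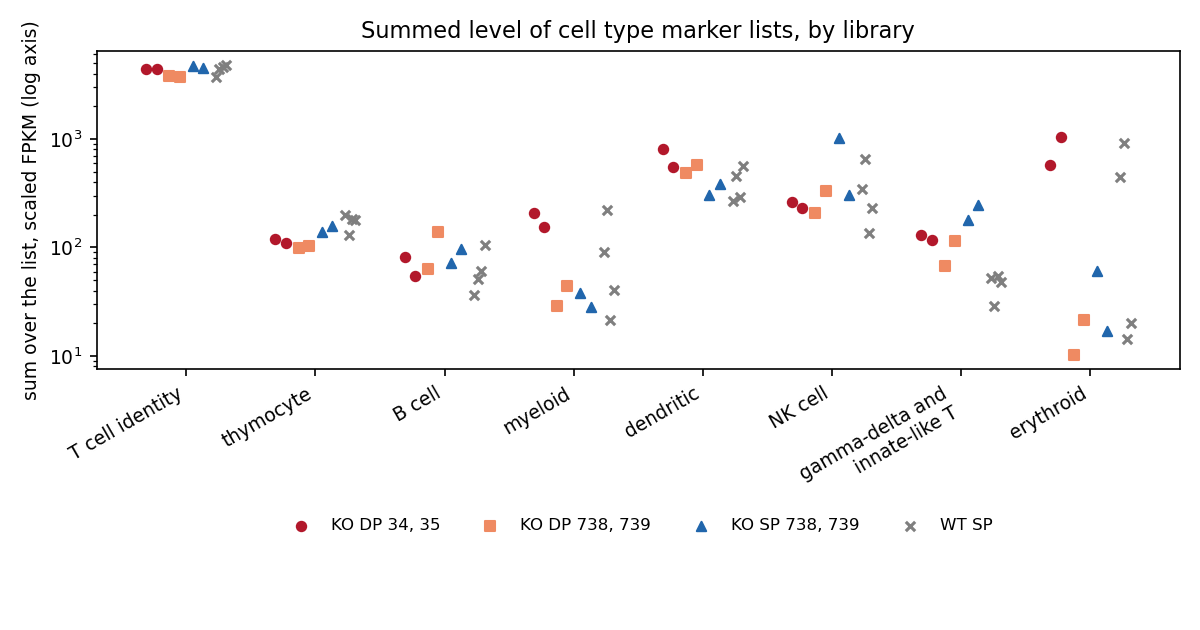
Summed scaled FPKM (y axis, log scale) of marker lists for 8 cell types, by library, with the same 4 symbols. The erythroid and myeloid sums are higher in KO DP 34 and 35 than in KO DP 738 and 739, while the T cell identity sum lies between 3699 and 4767 in all 10 libraries.

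Immature thymocytes also carry both CD4 and CD8, and their genes were near 0. The recombination genes Rag1 and Rag2 were at 0.0163, 0.0101, 0.398 and 0.737 and at 0, 0, 0.0983 and 0.552 in KO DP, and at no more than 0.0228 in KO SP. Dntt and Ptcra, the latter encoding the pre-T cell receptor chain, stayed under 0.5 scaled FPKM in all 6 knockout libraries. The thymocyte sum of 11 genes was 99.3 to 121 in KO DP against 138 and 156 in KO SP, and Satb1 was called lower. The low values above 0 in KO DP 738 and 739 lay in the libraries with raised olfactory receptor values, and the part of the libraries in them was not tested.

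H3K9me3, the trimethylated form of the mark, was mapped in cultured CD8 T cells of both genotypes with 2 libraries each, and the authors' peaks were assigned to the nearest start in mm9. A peak within 10000 bp of the start in both KO lists was found for 55 of the 272 genes called higher (20.2%, Wilson 95% interval 15.9 to 25.4), 67 of the 388 called lower (17.3%, 13.8 to 21.3) and 1637 of all 11162 tested (14.7%). In both WT lists the shares were 16.9%, 18.3% and 12.6%. Shares of the called genes were above that of all tested genes in either direction of change at this distance, with no test made. Within 2000 bp this was so only for genes called lower in the WT lists (3.09% against 2.53% of all tested). There the WT share of genes called higher was 1.84%, and the KO shares were 1.84% (higher), 1.80% (lower) and 1.86% (all tested). Intervals cover counting error only, and neighbouring genes can share a peak. The 4 lists hold 23304 to 154997 peaks, so they differ in how much was called.

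Cd4 had a peak upstream of its start in all 4 lists. Its distance was -1208 and -1288 bp in the WT lists and -1162 and -1047 bp in the KO lists, with the authors' peak scores of 19.5, 12.6, 22.8 and 23.8, whose scaling is not known to be shared between lists. In mm9 it lies on chromosome 6 between 124839110 and 124839760 in WT replicate 1 and between 124838898 and 124839650 in KO replicate 2, annotated as intergenic. A second peak lay in the first intron of Cd4 in WT replicate 1 (124829673 to 124830491), WT replicate 2 (124835599 to 124836225) and KO replicate 2 (124829704 to 124830331). Of 45 named genes called higher, 11 had a peak within 10000 bp in all 4 lists (Batf, Capg, Ccr6, Ccr8, Cd4, Cd81, Cxcl10, Cxcr5, Folr4, Il21 and Rora) and 21 in none, among them Zbtb7b, Tnfrsf4, Tnfsf11, Ahr, Maf, Cd40lg and Penk. Of 36 named genes called lower, 10 had one in all 4 lists, among them Cd8b1, Gzmm and Ly6c2, and 16 in none, among them Ccr7, Igfbp4 and Aqp9. Over all 11162 tested genes 8.87% had a peak in all 4 lists and 68.5% in none, against 24.4% and 46.7% of the named genes called higher and 27.8% and 44.4% of those called lower. Over all called genes the shares were 13.6% and 59.6% (higher) and 13.1% and 62.4% (lower), with no test made. The chromatin came from CD8 T cells cultured with antibodies to CD3 and CD28, so the state of these regions in KO DP cells was not measured.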

How the data were processed

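RNA-seq used SMART-Seq v4 on no more than 5 ng of RNA and then Nextera, which does not mark strand, per the labels' protocols. The authors deposited FPKM, for which the submitters' processing notes name TopHat, Cufflinks and mm9. Repeated symbols (466 of 23700 lines, leaving 23234 symbols) were summed. Columns were divided by median-ratio size factors. Genes averaging 0.5 FPKM or more across the 10 RNA libraries (11162) were tested on log2(FPKM + 1) with limma 3.58.1 in R 4.3.3, with a mean-variance trend, 7 residual degrees of freedom, no block and Benjamini-Hochberg adjustment. An exact permutation test of 4 against 2 samples cannot go below 0.133. No gene above 0 had the same value in 2 replicates.

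H3K9me3 came from native ChIP with micrococcal nuclease, per the labels. The authors deposited a score for each peak, and the notes name Bowtie, HOMER and mm9. Deposited distances to the nearest start, per the file headers, defined peaks within 10000 bp. Tool versions and the score's scaling are not given in any source used here. Promoters are from RefSeq (GRCm38.p6).

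Named genes were lineage genes chosen by name, the 15 largest rises and falls among called genes with no overlap and 1 sign within titles 738 and 739, and up to 4 per list by smallest p; others are named as list members. The comparison, the 25 lists and this rule were chosen with earlier results of these data known. Alternatives changed scaling, pseudocount, filter, block, trend and libraries. Some results are not reported here.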

Additional observations from a re-analysis of the deposited data

Results flagged for a closer look

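In 5 of the 87 named genes followed through the alternatives, 1 of the 4 KO DP libraries lay far from the other 3. The gap was beyond Dixon's 95% critical value for 4 samples. Chance flags about 1 in 20 such groups, so this count is near what chance gives. KO DP 35 was the high library in 3 of them, for Ccl1 (32.6 scaled FPKM against 12.7 to 13.3 in the others), Il21 (16.3 against 3.96 to 5.97) and Cxcr5 (38.8 against 23.4 to 25.0). KO DP 739 was the high library for G0s2 (0.972 against 0.357 to 0.412) and Lypd6b (0.697 against 0.235 to 0.278). In all 5 genes the value stayed on the same side of both KO SP values as the other 3 libraries. Without KO DP 35, Cxcr5 was no longer called, and Ccl1 and Il21 were.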

How the results depend on the processing

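Of 81 calls named above, 31 ended without scaling, 23 with KO DP 34 and 35, and 21 without the filter. At a pseudocount of 0.1, 8 ended, and with a common total 6 did. Under every alternative but the title block, 22 were called. Among them were Surf2, Rbm12 and St6galnac6, each listed at 0 in every library of KO DP or of KO SP, where a 0 may be a failed estimate. No named call turned its sign, which for left-out libraries follows from groups that do not overlap. Whether equal title numbers pair the samples is not given in the labels. Same-numbered deviations from the group mean correlated at 0.154 (738) and 0.0317 (739), over only 2 pairs. With 2 KO SP libraries the deviations of 1 mirror those of the other, so these values cannot decide it. With a replicate block on the title number, which leaves 1 residual degree of freedom, 0 genes were called by limma, 0 higher and 0 lower (3524 at an unadjusted p under 0.05), and the Th17, regulatory and naive lists had 0. The description number counts from 1 within each group, so it joins libraries across the title ranges, such as KO DP 34 with KO SP 738. With a block on it 2636 were called, 1255 higher and 1381 lower. Without scaling, which moved the median of all genes to -0.43, 231 were called, 47 higher and 184 lower, with 5 Th17 and 3 regulatory genes higher, and Runx3 turned to -0.26, as it did to -0.00215 with the range covariate. Other counts were 371 called and 185 lower without the filter (5 regulatory), 147 higher at a mean of at least 2 FPKM, 211 lower with a common total (503 called, 292 higher), 1088 called and 701 lower with the 6 knockout libraries, 1984 called (930 higher, 1054 lower) in titles 738 to 741, and 413 called and 170 lower with KO DP 34 and 35. The share of calls that were higher was 20.35% without scaling, 58.1% with a common total, 30.2% at 2 FPKM and 58.8% with KO DP 34 and 35, against 272 of 660 in the reported fit. Leaving out 1 library gave 56 to 1331 calls, 36 to 555 higher and 20 to 776 lower, lowest without a KO SP library and highest without WT SP 37 (275 without KO DP 35, 439 to 454 without another KO DP library). The lists then had 5 to 11 Th17 and 2 to 10 regulatory genes higher and 2 to 14 naive and memory genes lower. H3K9me3 shares at called genes (higher and lower; both WT, then both KO lists) were 1.84%, 3.09%, 1.84% and 1.80% within 2000 bp (all tested 2.53% WT and 1.86% KO), and 47.4%, 38.9%, 54.0% and 42.3% at any distance (all tested 31.8% and 38.2%). With scores of at least the median they were 12.9%, 14.7%, 17.3% and 13.9% (all tested 9.54% and 11.9%). The cause of these changes was not tested.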

Other observations

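Some gene families not on the lists stood out among the called genes; they were picked after the calls were seen, so their counts are a description. Of 46 tested ribosome assembly factors 15 were called lower and none higher, 45 of 46 were below 0 (median -0.66, and -0.60 with a common total), with Nop2 at 24.4, 19.7, 21.8 and 20.2 scaled FPKM against 37.7 and 42.8. Of 23 genes of branched-chain amino acid breakdown 8 were lower and none higher (median -0.61), among them both subunits of the first oxidative enzyme, Bckdha (-0.87, SE 0.21) and Bckdhb (-0.95, SE 0.23). Of 8 Gimap genes, GTPases of lymphocyte survival, 4 were lower, with Gimap6 at 377, 328, 350.2 and 364 against 796 and 625. With KO DP 34 and 35 alone these counts were 4, 0 and 0, at medians of -0.66, -0.64 and -0.61. They were 2, 1 and 0 without scaling, 4, 1 and 0 with a common total, 2, 1 and 0 without KO DP 35 and 0, 0 and 0 without either KO SP library.

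Replication-dependent histone genes pointed upward, with 63 of 64 above 0, a median of 1.21, and 11 called higher; none was called without scaling and 3 with KO DP 34 and 35 alone. These genes resemble one another, so reads can be shared among them. Of 13 sialyltransferases 4 were higher (St3gal1, St3gal2, St6galnac2 and St6galnac6) and 1 lower (St3gal6), and St6galnac2 was at 5.98, 3.62, 3.25 and 4.70 against 0.395 and 0.362 (1.94, SE 0.23, adjusted p = 0.00234 by limma). Ifitm2 and Ifitm3, membrane proteins of the interferon-induced family, were higher (2.80 and 1.51) while the interferon list's 2 called genes were lower. Kit, the stem cell factor receptor, was at 5.66, 5.50, 3.64 and 4.49 against 0.383 and 0.341 (2.08, SE 0.22, adjusted p = 0.00138).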
